A study of Homo sapiens with 6 samples.

Results

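The 40 genes described here code for neuronal and synaptic cell adhesion molecules, and were taken by gene name from RNA-Seq counts of 58735 genes. They fall into 10 families, namely neurexins, neuroligins, LRRTM, SLITRK, contactins, contactin-associated proteins (CNTNAP), NCAM, the L1 family, CADM and FLRT. All 40 names were present in the table, and 26 of them passed the filter on low counts (edgeR's filterByExpr) and were tested. The cells were H1155, a line of neuroendocrine large cell lung cancer that grows in suspended clusters, kept in DMEM with fetal bovine serum and given no treatment. The WT group (n = 3) held unedited cells. The GFI1-KO group (n = 3) held cells in which CRISPR/Cas9 and a pair of guides were used to delete part of the promoter region of GFI1, which encodes a zinc-finger transcriptional repressor, and edited cells were sorted as single GFP-positive clones. The paper reports that deletion of GFI1 turned H1155 into single cells that attach to the substrate. The labels do not say whether the 3 libraries of a group came from separate clones or cultures. The p-values thus measure only the spread between these samples, which may be technical. The edit, the choice of clone and the change in growth form cannot be told apart.

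Cell adhesion molecules of this kind hold neurons together, guide axons and join the presynaptic to the postsynaptic membrane. Neurexins sit mainly on the presynaptic side and bind neuroligins and LRRTM proteins across the cleft, while SLITRK proteins bind receptor tyrosine phosphatases. Contactins are anchored to the membrane by a lipid and pair with CNTNAP proteins along the axon, and NCAM1 and the L1 family bind like molecules on the next cell. NCAM1 (CD56) is also a routine marker of neuroendocrine lung tumors.

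Library totals lay between 14882914 and 17692882 counts on genes, so that 3 counts, taken as the floor, stand for 0.170 to 0.202 CPM. The floors cover counting error only, while the 95% intervals below come from the edgeR fit and include the spread between libraries. Counts of GFI1 were 153, 106 and 125 in WT and 174, 188 and 170 in the libraries labelled GFI1-KO. RNA of the targeted gene was thus no lower in the libraries labelled GFI1-KO (log2 fold change 0.31, SE 0.12, edgeR adjusted p = 0.0273), and every direction below rests on the labels. After the libraries were corrected for GC content and gene length, that difference was 0.18 (edgeR adjusted p = 0.213). The paper examined GFI1 protein by immunoblot and lists the H1155 knockout cells as GFI1-negative. RNA counts over the whole gene do not measure that protein. Of 7 neuroendocrine markers, among them CHGA, SYP and INSM1, 5 rose and 2 fell (36.5% and 35.9% of all tested genes did), with a summed level of 30373 to 31011 normalized counts in WT and 36326 to 37116 in GFI1-KO. With the GC content and length correction CHGB and SYP were higher, INSM1, ENO2 and UCHL1 were lower, and CHGA and NEUROD1 were not called. Summed levels ran from 3385 to 3567 in WT and 3987 to 4375 in GFI1-KO for 4 epithelial markers, from 3137 to 3223 and from 2073 to 2162 for 4 fibroblast markers, from 445 to 502 and from 220 to 248 for 3 endothelial markers, from 232 to 288 and from 77.7 to 83.8 for 2 glial markers, and from 3.15 to 6.14 and from 2.86 to 8.47 for 4 leukocyte markers. The epithelial sum was carried by KRT8, which rose from 2277 to 3105 normalized counts, while EPCAM fell from 66.9 to 14.2 and CDH1 from 27.0 to 5.39, and KRT18 did not pass the test (1089 and 1078). CD3E and DCN were at 0 in every library and VWF and PTPRC had group means of at most 1.11 normalized counts. The part of these markers in the results was not tested. In bulk RNA fewer cells of a kind and less RNA per cell cannot be told apart.

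Most of the measured adhesion genes differed between WT and GFI1-KO, and they went in both directions. Of the 26 tested members, 10 were higher in GFI1-KO, 13 were lower and 3 (NLGN3, CADM1 and CADM3) did not pass the test (edgeR quasi-likelihood test, with p-values adjusted by Benjamini-Hochberg over 17514 genes and called at 0.05 or below). The share of higher calls was 38.5% against 36.5% of all tested genes, and that of lower calls was 50% against 35.9%. A change of at least 2-fold upward was found for 5 members (19.2%, against 10.2% of all tested genes), and downward for 7 (26.9%, against 7.29%). Normalized counts of the 3 WT and the 3 GFI1-KO libraries did not overlap for 23 of the 26 members (88.5%, against 74.4% of all tested genes). The median log2 fold change was -0.26 over the tested members and 0.00 over all tested genes, and the median size of the change was 0.83 against 0.48. These shares are descriptions, since 6 of the tested members (CNTN4, CNTN2, SLITRK1, SLITRK3, SLITRK5 and CADM2) had fewer than 10 normalized counts in 1 group and passed the filter only through the other.

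The immunoglobulin-type molecules held the most abundant members. L1CAM (ENSG00000198910, chromosome X, 153861514 to 153886174, minus strand), a homophilic molecule of growing axons, had 6760, 6433 and 6716 counts in WT and 19071, 19355 and 18956 in GFI1-KO. Every GFI1-KO library thus lay far above every WT library. Its normalized count went from 7031 ± 101 (SD, n = 3) to 18118 ± 255 (SD, n = 3), 2.58-fold higher (log2 fold change 1.37, SE 0.03, edgeR adjusted p = 1.2e-22), and was 0.88 on the log2 scale with the GC content and length correction. NCAM1 (ENSG00000149294, chromosome 11, 112961247 to 113278436, plus strand) had 1850, 1710 and 1814 counts in WT and 4354, 4295 and 4375 in GFI1-KO. That was 1897 ± 6.04 against 4112 ± 39.6 normalized counts (SD, n = 3 each), 2.17-fold higher in GFI1-KO (log2 fold change 1.12, SE 0.03, edgeR adjusted p = 5.3e-20), with spread between libraries far below the difference. Its relative NCAM2 had no more than 2 counts in any library and was not tested.

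The other L1 family members moved less and the other way. NRCAM, which binds ankyrin and clusters at nodes of Ranvier, fell from 1729 ± 27.5 to 1374 ± 31.5 normalized counts (SD, n = 3 each, log2 fold change -0.33, edgeR adjusted p = 7.3e-08), a difference that became 0.05 (edgeR adjusted p = 0.33) with the GC content and length correction. NFASC, the neurofascin gene of the same sites, fell from 1567 ± 62.9 to 1434 ± 45.6 (SD, n = 3 each, log2 fold change -0.13, edgeR adjusted p = 0.0129), and DESeq2 did not call it (adjusted p = 0.0565). With the GC content and length correction NFASC was called lower (-0.31, edgeR adjusted p = 5.4e-07). CHL1, the close homolog of L1, had at most 3 counts in a library. By RPKM, a level that takes account of the deposited gene length and the library total, L1CAM made up 77.2% ± 0.390 of the L1 family in WT and 91.4% ± 0.181 in GFI1-KO (SD, n = 3 each), where an exact two-sided permutation test gave p = 0.1, the smallest it can give with 3 against 3. This share is not corrected for GC content, and it restates the calls above and is not a further test.

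Enzymes that add polysialic acid to NCAM1, a sugar chain that weakens adhesion, were ST8SIA4 and ST8SIA2. ST8SIA4 fell from 215 ± 5.17 to 38.5 ± 7.64 normalized counts (SD, n = 3 each, log2 fold change -2.48, edgeR adjusted p = 5.9e-14, and -1.86 with the GC content and length correction) while the NCAM1 count rose. ST8SIA2 stood at 60.5 ± 11.3 and 73.6 ± 2.32 (SD, n = 3 each) and did not pass the test (edgeR adjusted p = 0.177).

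Among contactins CNTN1 and CNTN2 fell, CNTN4 rose, and the summed level fell. CNTN1 (ENSG00000018236, chromosome 12, 40692442 to 41072418, plus strand), the contactin of the paranodal junction and a ligand of Notch, had 1612, 1540 and 1635 counts in WT and 520, 503 and 510 in GFI1-KO. It fell from 1690 ± 35.0 to 484 ± 10.1 normalized counts (SD, n = 3 each), 3.49-fold lower (log2 fold change -1.80, SE 0.05, edgeR adjusted p = 8.6e-21). CNTN4 (ENSG00000144619, chromosome 3, 2098813 to 3057956, plus strand), an axonal contactin known from the olfactory and visual systems, had 7, 6 and 5 counts in WT and 139, 133 and 115 in GFI1-KO. It was near the floor in WT and far above it in each GFI1-KO library, 18.9-fold higher (6.35 ± 0.992 to 122 ± 12.5 normalized counts, SD, n = 3 each, log2 fold change 4.24, SE 0.25, edgeR adjusted p = 4.8e-14), the largest rise among the members tested. CNTN2 (TAG-1, chromosome 1, 205042937 to 205078284), an axonal glycoprotein that partners CNTNAP2, had 32, 39 and 30 counts in WT and 12, 9 and 10 in GFI1-KO. The groups did not overlap, and CNTN2 fell from 35.8 ± 6.41 to 9.79 ± 1.49 normalized counts (SD, n = 3 each, log2 fold change -1.85, SE 0.32, edgeR adjusted p = 1.3e-05). CNTN3 and CNTN5 had at most 1 count in a library and CNTN6 had none. The summed RPKM of the contactins went from 13.9 ± 0.294 in WT to 4.72 ± 0.149 in GFI1-KO (SD, n = 3 each). CNTN1 held 98.8% of it in WT and 82.2% in GFI1-KO, and CNTN4 held 0.306% and 17.0%. CNTN1 was thus the main contactin in both groups. CNTN4 passed the filter only through GFI1-KO, and these shares restate the calls above and are not a further test.

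The genes of the 3 contactin-associated proteins that were tested were all called higher, against 36.5% of all tested genes. With the GC content and length correction the 3 were also called higher, against 33.2% of all genes. CNTNAP1 (Caspr, chromosome 17, 42682613 to 42699814, plus strand), which forms the paranodal complex with CNTN1, had 1477, 1463 and 1495 counts in WT and 2355, 2332 and 2285 in GFI1-KO. All GFI1-KO libraries lay above the WT libraries (1567 ± 53.6 to 2201 ± 47.4 normalized counts, SD, n = 3 each, log2 fold change 0.49, SE 0.04, edgeR adjusted p = 2.9e-11), and the change was 0.11 (edgeR adjusted p = 0.0189) with the GC content and length correction. CNTNAP2, which gathers potassium channels beside the node, went from 832 ± 20.02 to 998 ± 44.4 normalized counts (SD, n = 3 each, log2 fold change 0.26, edgeR adjusted p = 9.4e-05). CNTNAP3 (chromosome 9, 39072767 to 39288315, minus strand) had 100, 73 and 100 counts in WT and 265, 279 and 343 in GFI1-KO. Its normalized count was 96.1 ± 13.3 and 280 ± 37.6 (SD, n = 3 each, log2 fold change 1.54, SE 0.12, edgeR adjusted p = 1.9e-11), but 41.8% of its 50-base words also occur in near-identical copies such as CNTNAP3B, so the gene that gave these reads is uncertain. CNTNAP5 had 4, 1 and 2 counts in WT and none in GFI1-KO, below the filter, and CNTNAP4 had none. The ratio of CNTNAP1 to CNTN1 by RPKM was 1.15 ± 0.0248 in WT and 5.64 ± 0.0988 in GFI1-KO (SD, n = 3 each), and the ratio of CNTNAP2 to CNTN2 was 25.2 ± 3.60 and 110 ± 11.99 (SD, n = 3 each). In both pairs the ratio was higher in all 3 GFI1-KO libraries. The ratios set genes called higher over genes called lower, so their direction follows from those calls and is not a further test. CNTN2 also passed the filter only through WT.

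Stretches before RefSeq start sites (GRCh38.p14) of members that moved in opposite directions are shown, as far as they lie outside exons of GENCODE 44. CNTN1 and CNTNAP3 had the largest fall and the largest rise among members with at least 100 normalized counts on average for which RefSeq windows were at hand, and CNTN4 and L1CAM were added after their values were seen. Capitals mark AATCAC, the core of the GFI1 motif, or CAGCTG, an E-box, each searched on both strands.
CNTN1, chr12:40827934-40828183, plus strand: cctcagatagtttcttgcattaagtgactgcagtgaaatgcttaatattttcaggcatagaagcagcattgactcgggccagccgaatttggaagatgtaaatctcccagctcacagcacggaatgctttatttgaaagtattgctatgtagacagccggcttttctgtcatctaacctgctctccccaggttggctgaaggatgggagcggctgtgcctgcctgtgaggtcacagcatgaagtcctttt
CNTNAP3, chr9:39288316-39288417, minus strand: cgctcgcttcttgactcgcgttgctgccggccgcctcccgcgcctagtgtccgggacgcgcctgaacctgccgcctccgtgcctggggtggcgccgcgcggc
CNTN4, chr3:2891970-2892214, plus strand: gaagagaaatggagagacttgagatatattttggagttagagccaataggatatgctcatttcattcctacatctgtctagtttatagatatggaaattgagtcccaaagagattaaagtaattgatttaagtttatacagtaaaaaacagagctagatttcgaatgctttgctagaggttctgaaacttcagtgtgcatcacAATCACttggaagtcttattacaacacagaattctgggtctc
L1CAM, chrX:153876040-153876113, minus strand: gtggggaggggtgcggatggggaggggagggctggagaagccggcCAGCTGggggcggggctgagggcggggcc
The stretch of CNTN1, a gene that fell, holds neither motif, that of CNTN4, a gene that rose, holds AATCAC, and that of L1CAM holds CAGCTG. This depends on the windows shown, since the other RefSeq window of CNTN1 holds CAGCTG, the other of CNTN4, at the start of the gene, holds neither motif, and the CAGCTG of the CNTNAP3 window lies in the exonic part that is not shown. By symbol, 35 of the 40 members had RefSeq windows of 250 bases before to 50 after a start, 58 in all, and NRXN2, NCAM1, CADM1, CADM2 and LRRTM4 had none. AATCAC was in 7 of the 58 windows (12.1%, against 10.2% of all 35116 windows), in 1 of 12 windows of members that rose and in 1 of 24 of members that fell. CAGCTG was in 13 of the 58 (22.4%, against 17.9%), in 5 of 12 windows of members that rose (CNTNAP3, FLRT1, L1CAM and NLGN2, of which the 2 windows of L1CAM overlap and share 1 match) and in 3 of 24 of members that fell (CNTN1, NLGN4X and SLITRK5). Counts per gene do not show which start was used.

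SLITRK genes, whose products carry leucine-rich repeats and induce presynaptic differentiation, were called lower in 5 of 5 tested members, against 35.9% of all tested genes. Of these, SLITRK1, SLITRK3 and SLITRK5 passed the filter only through WT. With the GC content and length correction 3 of the 5 were called lower, against 27.7% of all genes. SLITRK1 (ENSG00000178235, chromosome 13, 83877205 to 83882393, minus strand) had 93, 64 and 72 counts in WT and 5, 6 and 3 in GFI1-KO. SLITRK5 (ENSG00000165300, chromosome 13, 87672615 to 87696272, plus strand), a partner of the BDNF receptor TrkB, had 107, 101 and 107 counts in WT and 12, 2 and 7 in GFI1-KO. Both were thus close to the floor in GFI1-KO and clearly present in WT. SLITRK1 was 17.8-fold lower in GFI1-KO (80.5 ± 12.9 to 4.42 ± 1.46 normalized counts, SD, n = 3 each, log2 fold change -4.15, SE 0.32, edgeR adjusted p = 6.2e-12). SLITRK5 was 16.5-fold lower (111 ± 1.46 to 6.64 ± 4.77 normalized counts, SD, n = 3 each, log2 fold change -4.04, SE 0.29, edgeR adjusted p = 1.9e-12). The size of the SLITRK5 fall is loosely known, since its log2 fold change was -4.67 without the first GFI1-KO library and -3.28 with the GC content and length correction. These were the largest falls among the members tested. SLITRK3, which acts at inhibitory synapses, had 15, 10 and 17 counts in WT and 3, 0 and 3 in GFI1-KO (log2 fold change -2.89, 95% interval -4.09 to -1.68, edgeR adjusted p = 8.7e-05). It lies on chromosome 3, 165186720 to 165197109, and at these counts the size of its fall is known only within that interval.

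SLITRK4 (chromosome X, 143622790 to 143635777) had 68, 46 and 60 counts in WT and 31, 26 and 35 in GFI1-KO. It fell from 61.2 ± 9.48 to 29.0 ± 4.17 normalized counts (SD, n = 3 each, log2 fold change -1.07, SE 0.23, edgeR adjusted p = 1.5e-04), and the call was lost with the GC content and length correction (-0.41, edgeR adjusted p = 0.118). SLITRK6, the most abundant of the family by RPKM and known from the inner ear and eye, had 718, 639 and 649 counts in WT and 524, 490 and 473 in GFI1-KO. Its normalized count was 708 ± 27.0 and 470 ± 27.5 (SD, n = 3 each, log2 fold change -0.59, SE 0.06, edgeR adjusted p = 5.8e-09), a difference that became -0.04 (edgeR adjusted p = 0.603) with that correction. SLITRK2 had at most 4 counts in a library. The summed RPKM of the family went from 11.5 ± 0.531 to 6.59 ± 0.382 (SD, n = 3 each), and SLITRK6 held 83.7% ± 1.53 of it in WT and 95.6% ± 0.652 in GFI1-KO (SD, n = 3 each, exact two-sided permutation p = 0.1 for both). Neither the sum nor the share is corrected for GC content. Both restate the calls of the members, some of which passed the filter only through WT, and are not a further test.

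Neurexins and neuroligins, the classic pair across the synaptic cleft, changed by less than 2-fold where they were tested. NRXN2 fell from 711 ± 86.5 to 583 ± 29.7 normalized counts (SD, n = 3 each, log2 fold change -0.28, edgeR adjusted p = 0.00105), which was -0.91 with the GC content and length correction. NRXN3 had 2, 1 and 2 counts in WT and 3, 17 and 17 in GFI1-KO, below the filter and uneven among the GFI1-KO libraries. NLGN2, the neuroligin of inhibitory synapses, had 1525, 1539 and 1488 counts in WT and 2206, 2390 and 2405 in GFI1-KO. It was higher in GFI1-KO (1609 ± 82.0 to 2210 ± 93.6 normalized counts, SD, n = 3 each, log2 fold change 0.46, SE 0.04, edgeR adjusted p = 5.2e-10), but the sign turned with the correction (-0.14, edgeR adjusted p = 0.00329). NLGN1, of excitatory synapses, fell from 282 ± 21.7 to 168 ± 21.4 normalized counts (SD, n = 3 each, log2 fold change -0.75, edgeR adjusted p = 4.5e-07), and no call was made with the correction (-0.02, edgeR adjusted p = 0.897). NLGN4X had 23, 14 and 27 counts in WT and 11, 14 and 13 in GFI1-KO. Its fall (log2 fold change -0.90, SE 0.35, edgeR adjusted p = 0.0222) was lost when any of 4 of the 6 libraries was left out, and 11.95% of its 50-base words occur in other genes. NLGN3 had a 95% interval of -0.51 to 0.03 on the log2 scale (edgeR adjusted p = 0.0973), so a modest fall is within its error. With the correction NLGN3 was called lower (-0.31, edgeR adjusted p = 0.0426).

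LRRTM2, a postsynaptic partner of neurexins, had 60, 51 and 68 counts in WT and 183, 138 and 159 in GFI1-KO. Each GFI1-KO library held more than any WT library, and LRRTM2 (chromosome 5, 138868923 to 138875368, minus strand) rose 2.40-fold (63.1 ± 7.60 to 152 ± 21.9 normalized counts, SD, n = 3 each, log2 fold change 1.26, SE 0.15, edgeR adjusted p = 4.6e-08). Of its exon bases 7.3% overlap CTNNA1 on the opposite strand, and whether the counts used strand is not given in the sources used here. Exon bases also overlap opposite-strand genes in CNTN4 (7.5%, CNTN4-AS1), NCAM1 (7.9%), CNTNAP1 (13.1%), FLRT1 (12.9%) and L1CAM (4.9%). LRRTM1 had 6, 4 and 1 counts in WT and none in GFI1-KO, LRRTM3 had at most 2 counts in a library and LRRTM4 none.

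CADM genes encode synaptic adhesion molecules of the nectin-like kind. CADM2 (chromosome 3, 84958981 to 86074429, plus strand) had 51, 42 and 46 counts in WT and 8, 3 and 7 in GFI1-KO. It was 8.46-fold lower in GFI1-KO (49.0 ± 2.93 to 5.68 ± 2.51 normalized counts, SD, n = 3 each, log2 fold change -3.08, SE 0.34, edgeR adjusted p = 7.5e-09), and -2.37 on the log2 scale with the GC content and length correction. CADM4, the most abundant of the family by RPKM and known from Schwann cells, had 612, 610 and 623 counts in WT and 838, 854 and 805 in GFI1-KO. It went from 652 ± 24.4 to 788 ± 27.3 normalized counts (SD, n = 3 each, log2 fold change 0.27, SE 0.06, edgeR adjusted p = 1.4e-04), and with the GC content and length correction it was called lower (-0.34, edgeR adjusted p = 1.3e-05). CADM1 (95% interval -0.58 to 0.01 on the log2 scale, edgeR adjusted p = 0.0801) and CADM3 (-0.04 to 0.44, edgeR adjusted p = 0.130) did not pass the test, and 36.6% of the CADM3 exon bases overlap CADM3-AS1 on the opposite strand.

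FLRT proteins bind latrophilins and UNC5 receptors. FLRT1 had 27, 28 and 33 counts in WT and 54, 52 and 47 in GFI1-KO. It went from 31.1 ± 3.50 to 48.3 ± 3.71 normalized counts (SD, n = 3 each, log2 fold change 0.63, SE 0.23, edgeR adjusted p = 0.0167), and the call was lost when either of 2 libraries was left out, in DESeq2 (adjusted p = 0.0943) and with the GC content and length correction (0.04, edgeR adjusted p = 0.884). An unnamed gene on the same strand, ENSG00000256824, overlaps 15.6% of its exon bases, so part of these counts is uncertain. FLRT2 had no count and FLRT3 at most 3 in a library.

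Ranked by RPKM, L1CAM stood first in both groups, at 58.7 ± 0.868 in WT and 150 ± 2.04 in GFI1-KO (SD, n = 3 each). In WT it was followed by CADM4 (17.6 ± 0.665) and NLGN2 (17.6 ± 0.899), which did not differ beyond their spread, and then by CNTNAP1 (15.7), CNTN1 (13.7), NRCAM (12.8), SLITRK6 (9.60) and NCAM1 (9.04). In GFI1-KO the order after L1CAM was NLGN2 (23.9 ± 1.03), CNTNAP1 (21.9 ± 0.452), CADM4 (21.1 ± 0.717) and NCAM1 (19.4), so that NCAM1 moved from rank 8 to rank 5, while CNTN1 moved from rank 5 to rank 9. These ranks and the sums below are not corrected for GC content. With the GC content and length correction the log2 fold change was 0.88 for L1CAM, 1.23 for NCAM1 and 0.11 for CNTNAP1, while NLGN2 (-0.14) and CADM4 (-0.34) were called lower. The summed RPKM of the 40 members was 178 ± 2.95 in WT and 278 ± 2.98 in GFI1-KO (SD, n = 3 each), and the share of L1CAM in it was 33.0% ± 0.210 and 53.7% ± 0.207 (exact two-sided permutation p = 0.1 for both, the smallest possible). Without L1CAM the sum was 119 ± 2.18 in WT and 129 ± 1.07 in GFI1-KO (SD, n = 3 each, exact two-sided permutation p = 0.1). Without L1CAM and NCAM1, both left out after their rise was seen, the sum was 110 ± 2.19 in WT and 109 ± 1.08 in GFI1-KO (SD, n = 3 each), the groups overlapped, and the exact two-sided permutation p was 0.8. Without CADM4, NLGN2 and CNTNAP1 as well, which were also called higher, the sum was 59.0 ± 0.449 in WT and 42.5 ± 1.06 in GFI1-KO (SD, n = 3 each). Abundant members called higher were taken out of this sum, so its direction follows from that choice and is not a test.

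Among 45 further genes for presynaptic and postsynaptic adhesion partners, 30 were tested, of which 15 were higher in GFI1-KO (50%, against 36.5% of all tested genes) and 9 lower (30.0%, against 35.9%), with a median log2 fold change of 0.30. With the GC content and length correction 13 of the 30 were higher and 13 lower, against 33.2% and 27.7% of all genes. The largest rises among those with at least 100 normalized counts were of LRFN4 (SALM3), a postsynaptic partner of receptor tyrosine phosphatases, from 109 ± 2.54 to 567 ± 31.3 normalized counts (log2 fold change 2.37, and 1.49 with that correction), of MDGA1, which binds neuroligins and hinders their contact with neurexins, from 401 ± 1.81 to 1555 ± 45.9 (1.95), and of NTNG2, a netrin-G, from 282 ± 25.2 to 611 ± 37.0 (1.11). The largest falls were of TENM1, a teneurin, from 2128 ± 49.5 to 791 ± 63.2 (-1.43), of IGSF9 from 232 ± 18.6 to 89.3 ± 12.6 (-1.38), and of TENM3 from 636 ± 53.4 to 393 ± 10.1 (-0.70, each SD, n = 3). All 6 passed the edgeR test, with adjusted p between 6.9e-21 for MDGA1 and 1.6e-09 for TENM3.

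Among 34 genes for the intracellular scaffolds of these molecules, 32 were tested and 15 were higher and 15 lower in GFI1-KO (46.9% each, against 36.5% and 35.9% of all tested genes). With the GC content and length correction 12 of the 32 were higher and 11 lower, against 33.2% and 27.7% of all genes. The scaffolds with the largest rises were EPB41L3, a band 4.1 protein that binds CADM and CNTNAP tails, from 664 ± 42.7 to 2684 ± 20.7 normalized counts (log2 fold change 2.01, edgeR adjusted p = 1.5e-22), APBA1 (MINT1), which binds neurexin tails, from 103 ± 25.9 to 280 ± 24.9 (1.43, edgeR adjusted p = 1.9e-10), and SHANK3, of the excitatory postsynapse, from 608 ± 56.0 to 1533 ± 13.3 (1.33, edgeR adjusted p = 3.6e-17, and 0.62 with that correction). The largest falls were of ANK3, the ankyrin that anchors L1 family proteins, from 452 ± 37.2 to 229 ± 23.4 (-0.98, edgeR adjusted p = 1.7e-10), of GPHN (gephyrin, which binds NLGN2 at inhibitory synapses) from 713 ± 45.5 to 428 ± 34.4 (-0.73, edgeR adjusted p = 4.9e-10), and of LIN7C from 1188 ± 42.2 to 736 ± 10.6 (-0.69, edgeR adjusted p = 4.2e-12, each SD, n = 3), the last of which was 0.00 with the GC content and length correction (edgeR adjusted p = 0.974).

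Fold changes went with the GC content of the gene's longest GENCODE 44 transcript across all tested genes (Spearman rho 0.574 over 17415 genes, which share the same 6 libraries). Over the 26 tested members rho was 0.368, the median GC content was 52.7% for members that rose and 42.1% for members that fell, and rho with gene length was -0.147. With the GC content and length correction 7 of the 26 members were higher (26.9%, against 33.2% of all genes) and 11 lower (42.3%, against 27.7%), 15 kept the call they had before and rho was 0.0325. CNTN4, L1CAM, NCAM1, CNTNAP3 and LRRTM2 were called higher, and SLITRK1, SLITRK3, SLITRK5, CADM2, CNTN1 and CNTN2 lower, in both fits. Both fits use the same counts, so the second is not a separate test. Of these genes CNTN4 passed the filter only through GFI1-KO, and SLITRK1, SLITRK3, SLITRK5, CADM2 and CNTN2 only through WT. The part of GC content in the results was not tested further.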

How the data were processed

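RNA-Seq of 6 H1155 libraries (3 WT, 3 GFI1-KO) was analyzed from a table in which the authors deposited raw counts per gene and library, together with the length of each gene. According to the study's methods, total RNA was extracted with TRIzol, mRNA was taken with poly-T beads and sequenced on a NovaSeq system, and reads were aligned to GRCh38/hg38 with Hisat2 and counted with featureCounts, whereas the submitters' processing notes name Bowtie2 and HTSeq. Versions, gene annotation, strand setting and the treatment of reads with several matches are not given in the sources used here. Library totals lay between 14882914 and 17692882 counts.

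The groups were compared with edgeR 4.0.16 under R 4.3.3 (TMM factors, filterByExpr, quasi-likelihood F test, Benjamini-Hochberg adjustment over 17514 genes, adjusted p of at most 0.05, no fold minimum), without pairing, since the labels give only replicate numbers. The fit was tested on simulated data. SE was obtained from the log2 fold change and F. Counts were normalized to the mean effective (TMM) library size of the 6 libraries, and RPKM uses the deposited length and the library total. Exact permutation tests were two-sided. GC content and length were corrected with natural splines of 5 degrees of freedom per library over 17415 genes with a GENCODE 44 entry. Alternatives were DESeq2 1.42.0, limma-voom (limma 3.58.1), other scaling factors, other filters, a replicate block, a stricter threshold and leaving out each library.

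The 40 members, the gene lists and the alternatives were chosen with earlier results of these data known. Full values are given for members called at 2-fold or more and for the member of highest mean RPKM in each family, with neurexins and neuroligins as 1 family, and of each partner list for the 3 largest rises and falls with at least 100 normalized counts. Marker genes that are not reported here were left out of the marker lists and their sums.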

Additional observations from a re-analysis of the deposited data

How the results depend on the processing

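Over the 17 alternatives, the members higher in GFI1-KO numbered 7 to 11 and those lower 8 to 15. Requiring at least 10 counts in every library left 20 members, 8 of them lower, and turned the median log2 fold change to 0.033, as CNTN2, CNTN4, SLITRK1, SLITRK3, SLITRK5 and CADM2 were no longer tested. The median was -0.30 with upper-quartile factors and -0.19 with the GC content and length correction, with or without the replicate block. That correction turned the sign of NLGN2 (-0.14), NRCAM (0.046), CADM3 (-0.24) and CADM4 (-0.34), with the same values when the replicate block was added, and the cause was not tested. Leaving out 1 library at a time gave 10 to 11 higher, 12 to 13 lower and a median of -0.27 to -0.17. The calls of NLGN4X (4 libraries), FLRT1 and NFASC (2 libraries each) were lost in this way, and the same 3 were lost in DESeq2, which called 9 higher and 11 lower of the 26 members (10 and 12 of the 36 members with a count, since it ran without the filter). With the replicate block 10 were higher and 13 lower, the median was -0.26 and no member's call changed. Deviations of same-numbered libraries correlated at -0.0062, 0.0134 and 0.0213 over 11859 genes, and those of differently numbered libraries at -0.0502 to 0.0439. With 3 libraries per group these values cannot show whether a number stands for a shared culture or batch. Without the filter, NRXN3 was called higher (edgeR adjusted p = 2.97e-04) and LRRTM1 (0.00905) and CNTNAP5 (0.0482) lower. At this depth the 95% interval of SLITRK3 still spans -4.09 to -1.68, and 14 members had too few counts to be tested.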

Other observations

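The genes around the members were read as a description, within 5 Mb on each side, from the fit without the GC content and length correction. The part of GC content in these values was not tested. Of all tested genes 36.5% rose and 35.9% fell. SLITRK1, SLITRK6 and SLITRK5 lie in a row on chromosome 13, 1910 kb and 1866 kb apart. Each lies within 5 Mb of the others, so the neighbors of each include the other members of this row, which also fell. Of the 8 tested neighbors of SLITRK1, SLITRK6 and SLITRK5 among them, none rose and 6 fell (median log2 fold change -0.67), and SLITRK1 fell more than any of them. Of the 4 tested neighbors of SLITRK5, a set that holds SLITRK1 and SLITRK6, none rose and 4 fell (median -1.31). Of the 4 of SLITRK6, a set that holds SLITRK1 and SLITRK5, none rose and 3 fell (median -2.80). CNTN1 had 21 tested neighbors, of which none rose and 14 fell (median -0.51), and CADM2 had 6, of which 5 fell (median -0.50). CNTN4 rose where 4 of 12 tested neighbors rose and 7 fell (median -0.28), and none of them rose as much. Among the 102 tested neighbors of L1CAM 55 rose and 25 fell (median 0.34), and 9 had a log2 fold change at least as high as that of L1CAM. NFASC and CNTN2 are 20.1 kb apart on chromosome 1 and had log2 fold changes of -0.13 and -1.85.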
